A study of Arabidopsis thaliana with 11 samples.

Results

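Among the 20971 genes measured in synchronised Arabidopsis inflorescences, 74 were below 1 FPKM in each library of days 0, 2 and 4 and at 5 FPKM or more in each library of day 8. FPKM is the number of sequenced fragments scaled by transcript length and library size. The members were selected on these FPKM limits, and genes whose alias names the regulator or jasmonate families WRKY, NAC, ERF, RAP2, MYB, JAZ, AOC or KMD were set aside. The limits were met by 85 genes, of which 11 were set aside in this way. They were thus chosen by their FPKM in all 11 libraries, so their levels on day 8 against earlier days are given as a description from which no test result is drawn.

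The plants were pAP1:AP1-GR ap1-1 cal-1 in the Landsberg ecotype, and all days share this genotype. Without functional AP1 and CAL, both MADS-domain regulators of floral meristem identity, the apex keeps forming meristems that do not become flowers. The AP1 promoter drives a fusion of AP1 with the glucocorticoid receptor, and dexamethasone lets that fusion enter the nucleus and start flowers together. Total RNA was sequenced from inflorescences taken before treatment (day 0, n = 3) and at days 2 (n = 2), 4 (n = 3) and 8 (n = 3) of daily dexamethasone. Each replicate was a pool of inflorescences, and untreated plants were sampled on day 0 alone. Floral stage, age of the plants and length of treatment therefore cannot be told apart. In tissue of mixed cells, more cells of one type and more RNA per cell also cannot be told apart. The depth of the libraries is unknown, because the deposited FPKM columns had been brought to a common distribution. Libraries of one day correlated at r = 0.971 to 0.994 across genes on the log2 scale.

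Some of these genes act in the jasmonate pathway or in defence. Jasmonic acid is made from membrane lipids and is joined to isoleucine to give the active hormone, which in flowers is needed for stamen filament growth and anther opening and in leaves drives responses to wounds and chewing insects. Plants end the signal by hydroxylating jasmonic acid or its isoleucine conjugate and by adding sulfate or sugar, and the genes for these steps are themselves switched on by the hormone. Other defence genes make antifungal peptides, volatile terpenes or modified amines, and several enzyme families conjugate and export small molecules.

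By role, 4 members were placed under inactivation of jasmonates, 11 under defence products and 14 under signalling. A further 14 were placed under conjugation and detoxification, 8 under surface, wall and hormone functions, and 23 in no group. The groups do not overlap, so a gene that acts on jasmonates can stand under another heading, as UGT76E1 does. These groups were drawn up after the values had been seen, and other genes of the table were not grouped, so no background share stands beside them. Of the 74 members, 37 carry no alias in the deposited table, and 1, AT3G17110, is annotated by RefSeq as a pseudogene.

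Promoters of members with the plant G-box are printed first, because this element is bound by basic helix-loop-helix and bZIP factors, among them MYC2, the main factor of the jasmonate response. Each line holds the 250 bases before the gene start annotated by RefSeq on TAIR10.1, 5′ to 3′ on the strand of the gene. This is the reference genome, and it was not compared with the sequence of the Landsberg plants used here. Capitals mark the G-box CACGTG and the TATA element TATAAA. The first 4 were chosen because they are the members with a G-box among the 20 most abundant on day 8, and the last 2 because they are neighbouring copies.
DIN11: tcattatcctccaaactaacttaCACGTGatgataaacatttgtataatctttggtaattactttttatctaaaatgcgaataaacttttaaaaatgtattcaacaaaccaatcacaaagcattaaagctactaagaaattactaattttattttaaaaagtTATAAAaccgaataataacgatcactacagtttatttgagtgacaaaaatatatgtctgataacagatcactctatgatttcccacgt
LEA7: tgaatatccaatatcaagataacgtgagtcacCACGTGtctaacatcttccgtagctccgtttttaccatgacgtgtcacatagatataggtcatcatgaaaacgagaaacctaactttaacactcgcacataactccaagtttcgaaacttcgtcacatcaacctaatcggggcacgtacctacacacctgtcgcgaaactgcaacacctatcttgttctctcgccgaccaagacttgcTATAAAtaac
RRTF1: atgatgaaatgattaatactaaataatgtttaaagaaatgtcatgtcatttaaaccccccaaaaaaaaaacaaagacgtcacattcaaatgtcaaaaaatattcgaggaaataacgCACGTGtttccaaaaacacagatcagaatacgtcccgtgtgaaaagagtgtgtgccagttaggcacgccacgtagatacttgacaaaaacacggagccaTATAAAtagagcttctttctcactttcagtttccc
AT4G33467: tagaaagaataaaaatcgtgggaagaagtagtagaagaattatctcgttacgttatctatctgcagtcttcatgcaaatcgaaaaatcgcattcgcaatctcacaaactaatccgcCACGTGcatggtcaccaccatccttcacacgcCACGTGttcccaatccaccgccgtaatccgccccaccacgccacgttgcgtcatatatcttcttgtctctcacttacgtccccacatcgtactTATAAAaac
UGT76E1: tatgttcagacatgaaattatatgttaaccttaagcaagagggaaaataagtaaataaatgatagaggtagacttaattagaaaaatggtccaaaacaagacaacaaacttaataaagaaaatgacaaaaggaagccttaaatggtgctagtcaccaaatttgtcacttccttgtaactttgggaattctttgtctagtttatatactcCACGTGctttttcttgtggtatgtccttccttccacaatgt
UGT76E2: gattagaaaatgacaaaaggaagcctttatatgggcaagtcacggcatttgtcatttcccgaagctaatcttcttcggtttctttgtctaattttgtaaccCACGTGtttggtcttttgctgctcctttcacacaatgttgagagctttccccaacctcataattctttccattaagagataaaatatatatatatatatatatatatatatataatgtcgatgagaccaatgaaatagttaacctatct
These windows are chr3:18393497-18393746 for DIN11, chr1:19619474-19619723 for LEA7 and chr4:16451626-16451875 for RRTF1, all on the plus strand. They are chr4:16102221-16102470 for AT4G33467, chr5:24007908-24008157 for UGT76E1 and chr5:24010689-24010938 for UGT76E2, all on the minus strand. The G-box begins 227 bases before the gene start in DIN11, 218 in LEA7, 134 in RRTF1, 41 in UGT76E1 and 149 in UGT76E2. AT4G33467 has 2 G-boxes, 134 and 102 bases before its start.

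On day 8 the mean level of the members ran from 7.47 to 256 FPKM with a median of 17.0. Means of 100 FPKM or more were reached by 4 members, 10 reached 50, 21 lay between 20 and 50 and 43 were under 20. The summed level was concentrated in few genes: DIN11, JRG21, AT2G38240, NATA1 and AT5G52050 together made up 38.1% of the summed mean day 8 FPKM of all 74. For each member the lowest day 8 library was set over the highest library of the earlier days, and this ratio had a median of 21.3 and a range of 6.49 to 353, with 62 members at 10 or more. With all days in one limma fit on log2(FPKM + 1), the difference between day 8 and day 4 had a median of 3.73 over the members (2.48 to 7.58), beside -0.19 over the 19278 genes tested. All 74 passed the filter on low values and all 74 were called higher (adjusted p under 0.05 and at least 2-fold), as were 12.5% of the genes tested. The selection fixes both the filter and the calls, and nothing is read from this count.

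**Figure D1:**
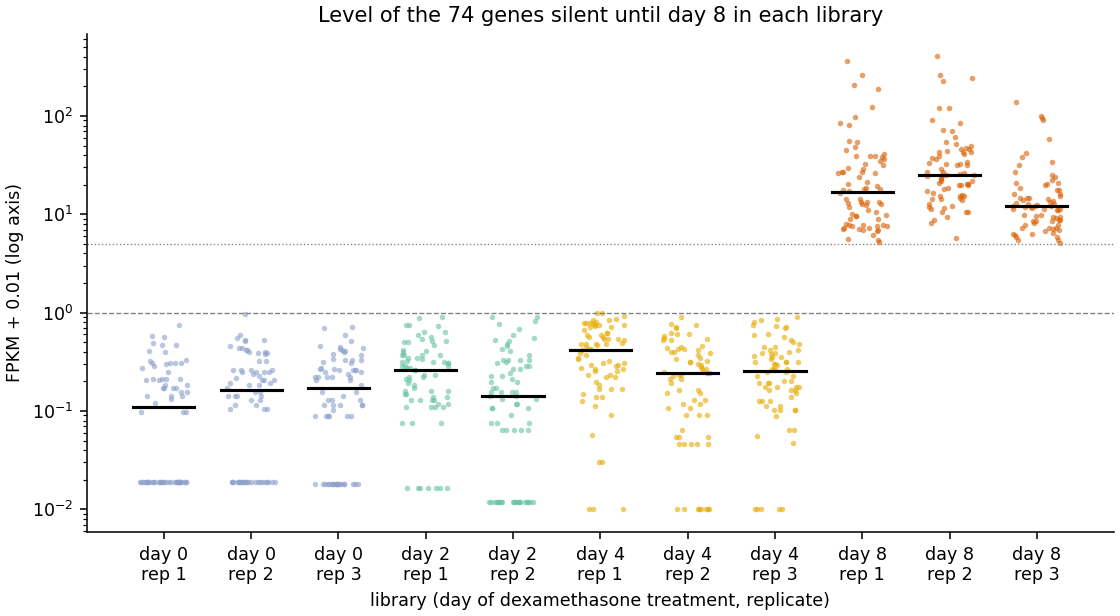
FPKM + 0.01 (log axis) of the 74 genes in each of the 11 libraries, ordered by day and replicate; points are genes, black bars are medians, and dashed and dotted lines are the limits of 1 and 5 FPKM. The day 8 medians are 16.9, 25.2 and 12.0 FPKM in replicates 1, 2 and 3, and the rows of points at the bottom of the earlier libraries are genes at the lowest value of the column.

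The largest of these levels belonged to oxygenases that use 2-oxoglutarate. DIN11, a member of this family first described as induced in the dark, had 264, 406 and 99.1 FPKM in replicates 1, 2 and 3 of day 8, against 0.0536 to 0.739 FPKM in the 8 earlier libraries. AT2G38240, annotated as an oxygenase of the same superfamily, had 186, 246 and 91.7 FPKM on day 8, against at most 0.489 FPKM before. JRG21, the jasmonate-regulated gene 21, encodes an oxygenase of this family that hydroxylates jasmonic acid, and it had 361, 258 and 139 FPKM on day 8, against at most 0.393 FPKM before. JRG21 thus showed the widest gap of the set, with its lowest day 8 library 353 times its highest earlier one.

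The members placed under jasmonate inactivation were JRG21 and 3 others, and their mean day 8 levels ran from 19.7 to 253 FPKM with a median of 65.7. CYP94B3, a cytochrome P450 that hydroxylates jasmonoyl-isoleucine, had 98.0, 90.3 and 34.3 FPKM in the 3 day 8 libraries, against 0.116 to 0.514 FPKM earlier. Its relative CYP94B1 had 29.4, 20.6 and 9.23 FPKM on day 8, against at most 0.1 FPKM earlier, and was listed at 0 in each day 4 library. ST2A, a sulfotransferase that acts on hydroxylated jasmonic acid, had 81.2, 72.8 and 17.9 FPKM on day 8, against 0.104 to 0.503 FPKM earlier. In all 4 genes replicate 1 was the highest and replicate 3 the lowest of day 8. UGT76E1, a glucosyltransferase of hydroxylated jasmonic acid, is counted under conjugation and had 26.8, 32.4 and 15.3 FPKM on day 8, against at most 0.884 FPKM earlier.

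Relatives of these genes outside the set were looked up after the values had been seen. CYP94C1, a P450 that oxidises the hydroxylated conjugate further, had 9.65, 12.6 and 3.26 FPKM on day 8, against 0.143 to 0.328 FPKM on day 4. It missed the limit of 5 FPKM through replicate 3 and was 2.80 ± 0.34 (SE) higher on day 8 than on day 4 on the log2(FPKM + 1) scale (limma, Benjamini-Hochberg adjusted p = 2.69e-05). ST2B, the sulfotransferase gene next to ST2A, had 1.05, 1.07 and 0.990 FPKM on day 8, against 0.548 to 0.622 FPKM on day 4, and its difference of 0.36 ± 0.15 (SE) did not reach 2-fold (limma adjusted p = 0.0483). Reads shared between such copies may have been split by the estimation, so levels of near-identical genes are less certain.

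**Figure D2:**
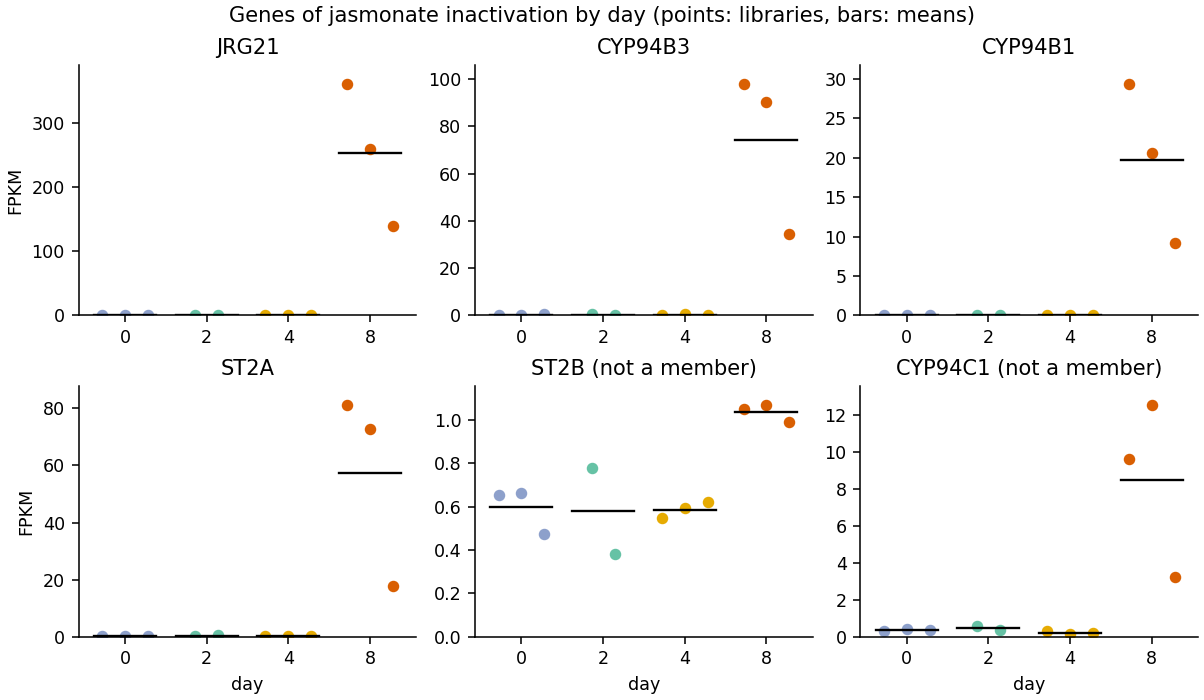
FPKM by day of the 4 members placed under jasmonate inactivation and of ST2B and CYP94C1, which are not members. Points are libraries (replicates in order from left to right), bars are means, and each panel has its own axis from 0. Day 8 is above each earlier day in all panels, while ST2B stays near 1 FPKM and replicate 3 of CYP94C1 is at 3.26 FPKM.

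The group of defence products also takes in the oxygenases DIN11 and AT2G38240 described above, though no defence product is named here for either. AT2G38240 is of the same superfamily as JRG21 and its substrate was not looked up. Its place outside the jasmonate inactivation group is therefore uncertain. Its other members, among them small peptides, a lipase and a terpene synthase, had mean day 8 levels of 8.18 to 164 FPKM. NATA1, an acetyltransferase that makes acetylornithine, a defence amine, had 206, 228 and 57.9 FPKM on day 8, against at most 0.256 FPKM earlier. Its neighbouring gene AT2G39020, which RefSeq names NATA2, was already expressed before treatment: it had 82.2, 80.8 and 63.1 FPKM on day 8, against 81.4 to 83.4 FPKM on day 4, and was not called changed (limma log2 difference -0.13 ± 0.10, adjusted p = 0.239). On day 4 NATA1 was at 0 to 0.0445 FPKM, far below its neighbour.

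Defensins, small cysteine-rich antifungal peptides, gave 2 members. PDF1.4 had 55.9, 85.4 and 95.7 FPKM on day 8, against 0.00909 to 0.971 FPKM earlier, and its 3 day 4 libraries were all above its 3 day 0 libraries. PDF1.2b had 10.1, 12.6 and 14.5 FPKM on day 8, against at most 0.461 FPKM earlier. Both were highest in replicate 3, the library in which most members were lowest. RNS1, a secreted ribonuclease induced by wounding and phosphate starvation, was also highest there, with 12.5, 10.5 and 13.5 FPKM on day 8 and at most 0.357 FPKM before.

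TPS10, a terpene synthase that makes volatile monoterpenes, had 38.5, 39.6 and 11.3 FPKM on day 8, against at most 0.881 FPKM earlier. MPL1, a lipase induced by the aphid Myzus persicae, varied little among the day 8 libraries, which gave 32.4, 32.6 and 25.3 FPKM, against 0.221 to 0.593 FPKM earlier. JAL34, a jacalin-type lectin, had 12.7, 11.6 and 9.32 FPKM on day 8. The lowest levels in this group belonged to AT1G30730 and AT1G30720, adjacent oxidases of the berberine-bridge type, which averaged 10.7 ± 4.35 and 8.18 ± 2.85 FPKM on day 8 (SD, n = 3).

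Signalling members had a median of 20.6 FPKM on day 8 and a highest mean of 38.9 FPKM, so none approached the oxygenases above. CML41, a calmodulin-like calcium sensor, was the most abundant with 41.2, 51.7 and 23.9 FPKM on day 8, against at most 0.553 FPKM earlier. RRTF1, a redox-responsive factor of the AP2 type whose alias held none of the family names set aside, had 48.6, 47.8 and 7.73 FPKM on day 8, against 0.239 to 0.961 FPKM earlier. Its highest earlier library was day 0 replicate 2, and its highest day 8 library was 6.29 times its lowest, the widest spread in the set. Calcium and lipid signalling further gave 5PTASE11, an inositol polyphosphate phosphatase with 39.0, 46.1 and 9.86 FPKM on day 8, the channel CNGC13 with 11.7, 27.1 and 11.9 FPKM, and AT3G22910, which RefSeq names as the calcium pump ACA13, with 18.4, 23.1 and 7.31 FPKM.

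Kinase and ligase genes were also among the signalling members. MAPKKK21 had 36.3, 41.4 and 8.11 FPKM on day 8 and MAPKKK19 had 18.0, 37.3 and 14.7 FPKM, and neither was above 0.414 FPKM in an earlier library. CMPG1 and PUB22, U-box ubiquitin ligases that act in immune signalling, averaged 23.3 ± 11.5 and 9.83 ± 4.82 FPKM (SD, n = 3). CBP60G, a calmodulin-binding regulator of salicylic acid synthesis, had 9.92, 14.7 and 8.71 FPKM on day 8, and its day 4 libraries of 0.98, 0.613 and 0.707 FPKM were already above the day 0 range of 0.133 to 0.195 FPKM. PSK2, a precursor of the growth peptide phytosulfokine, had 7.65, 33.3 and 12.8 FPKM on day 8, with replicate 2 well above the other libraries.

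The 74 members are 0.353% of the genes of the table. Conjugation and detoxification members included 4 genes with a UGT alias, out of 52 such genes in the table (7.69%), and AT5G49690, a glycosyltransferase with no alias. AT5G52050, named DTX50 by RefSeq and an efflux carrier known to export abscisic acid, led this group with 123, 122 and 31.6 FPKM on day 8, against at most 0.252 FPKM earlier. AT5G49690 had 26.9, 49.8 and 26.8 FPKM on day 8, against at most 0.384 FPKM earlier. UGT76B1, which glucosylates isoleucic acid and salicylic acid, had 7.55, 18.1 and 13.8 FPKM, and UGT71B6, which glucosylates abscisic acid, had 7.19, 18.5 and 8.84 FPKM. UGT76E2, next to UGT76E1, stayed lower than its neighbour on day 8 with 7.76, 9.41 and 6.50 FPKM.

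Cytochrome P450 genes gave 4 members of 156 with such an alias (2.56%). Apart from the jasmonate enzymes CYP94B3 and CYP94B1 these were CYP71A22 and CYP81D1, with mean day 8 levels of 16.5 and 7.56 FPKM. CYP71A22 had 14.3, 20.5 and 14.7 FPKM on day 8, against 0.251 to 0.768 FPKM earlier. CYP81D1 had 5.47, 12.1 and 5.09 FPKM and was the member nearest to the lower limit. No member came from the 45 genes with a glutathione S-transferase alias, the 101 with an ABC transporter alias or the 45 with a MADS-domain alias, families in which the overall share gives less than 1 member each.

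Surface, wall and hormone members were led by LEA7, a late embryogenesis abundant protein of the kind that protects cells during drying, with 84.9, 70.7 and 16.0 FPKM on day 8, against at most 0.25 FPKM earlier. AT4G15610, a CASP-like membrane protein, had 17.2, 54.9 and 42.1 FPKM on day 8, and its day 4 libraries reached 0.859 FPKM. Lipid and wall enzymes were lower: FAR5 and FAR8, adjacent fatty acid reductases that make fatty alcohols, averaged 17.0 ± 10.3 and 17.0 ± 7.44 FPKM (SD, n = 3), and AT2G45220, the pectin methylesterase PME17 in RefSeq, averaged 10.3 ± 3.64 FPKM. GA2OX6, which inactivates gibberellins, had 13.1, 26.6 and 8.52 FPKM. PIN2, an auxin efflux carrier best known from roots, had 7.71, 8.82 and 12.4 FPKM and was another of the few genes highest in replicate 3.

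Members outside these groups held some of the more abundant transcripts. AT2G31945, with no description in the table, had 54.8, 120.1 and 38.6 FPKM on day 8, against at most 0.265 FPKM earlier. AT1G68620, an alpha/beta-hydrolase, had 38.9, 61.5 and 20.3 FPKM on day 8, and AT5G19110, an aspartyl protease, had 45.4, 46.3 and 20.01 FPKM. AT4G33467, without a description, had 39.1, 43.6 and 13.8 FPKM on day 8, against at most 0.249 FPKM earlier. The steadiest member was AT4G33800, whose day 8 libraries of 8.05, 8.10 and 7.33 FPKM differed by a ratio of 1.10.

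**Figure D3:**
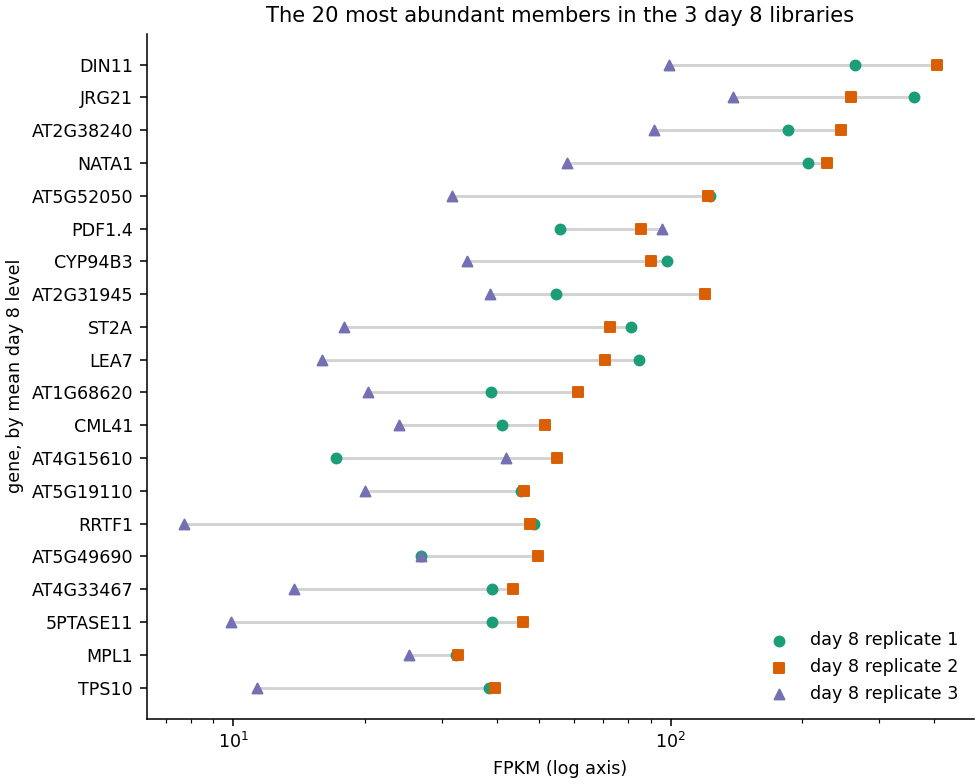
FPKM (log axis) of the 20 members with the highest mean day 8 level in the 3 day 8 libraries, one symbol per replicate; grey lines join the lowest and highest library of a gene. Replicate 3 is the lowest library for 18 of the 20 genes, PDF1.4 and AT4G15610 being the exceptions.

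The limits were narrow for some genes. Just inside the lower limit on day 8 were CYP81D1, TPX2, a thioredoxin-dependent peroxidase, and GAT, a glutamine amidotransferase, whose lowest libraries had 5.09, 5.26 and 5.51 FPKM. Just outside were AT5G38710, AT5G05220 and AT5G01760 with 4.94, 4.90 and 4.81 FPKM. Just inside the upper limit on earlier days were CBP60G, PDF1.4 and RRTF1, whose highest libraries had 0.98, 0.971 and 0.961 FPKM, and just outside were AT1G66920, ATPTR3 and CYP76C2 with 1.01, 1.01 and 1.02 FPKM. One library weighed on the size of the set: without day 8 replicate 3, 138 genes would meet the rule.

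The 3 day 8 libraries differed in a shared way across the members, and the rule set no order among them. The libraries also differed over all genes of the table. On the log2 scale replicate 3 correlated with the day 4 libraries at r = 0.887 to 0.895, replicate 1 at 0.851 to 0.859 and replicate 2 at 0.822 to 0.829. The part of this difference in the order seen in the members was not tested. Replicate 2 was the highest library for 55 of the 74 members, or 74.3%, against 26.2% of the 14046 genes with at least 5 FPKM in each day 8 library. Replicate 3 was the lowest for 52 members, or 70.3%, against 26.1% of those genes. The same order was common, though less so, among other genes that were higher on day 8: of the 1767 further genes called higher at day 8 than at day 4 with at least 5 FPKM in each day 8 library, a set chosen after the data had been seen, 58.7% were highest in replicate 2 and 61.2% lowest in replicate 3. The members' level in replicate 3 was a median of 0.467 times that in replicate 2, beside 0.704 in those 1767 genes and 1.07 in the 14046. The highest day 8 library was a median of 2.44 times the lowest in the members (1.10 to 6.29), and the coefficient of variation had a median of 44.6%.

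Replicate 2 was the most frequent highest library in each role group except that of the 4 genes placed under jasmonate inactivation. Replicate 3 was the most frequent lowest library in each. Differences between the groups were not tested. Signalling genes were highest in replicate 2 in 13 of 14 cases, and conjugation genes in 11 of 14, of which 8 were lowest in replicate 3 and 6 in replicate 1. The 4 genes placed under jasmonate inactivation all peaked in replicate 1, but UGT76E1, which acts on the same hormone, peaked in replicate 2, as did CYP94C1 and AT2G38240 outside that group. The largest ratios of highest to lowest day 8 library belonged to RRTF1 (6.29), LEA7 (5.31), MAPKKK21 (5.10), 5PTASE11 (4.67) and ST2A (4.54), all lowest in replicate 3. The smallest belonged to AT4G33800 (1.10), AT4G22470 (1.23), RNS1 (1.28), MPL1 (1.29) and AT5G59080 (1.32). The 11 genes set aside for their alias followed the members, with 11 highest in replicate 2 and 10 lowest in replicate 3.

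Several lists ran in another order among the day 8 libraries. Counting genes with at least 5 FPKM in each of them, 5 of 8 jasmonate and ethylene output genes were highest in replicate 1 and 5 lowest in replicate 2, and 8 of 12 mitochondrial and detoxification genes were lowest in replicate 1 and 11 highest in replicate 2. Both xylem genes were lowest in replicate 3, as most members were. CRC, a regulator of carpel and nectary formation, had 18.3, 20.2 and 33.0 FPKM on day 8, against 0.577 to 1.74 FPKM on day 4. Of the carpel, ovule and nectary list 3 genes had at least 5 FPKM in each day 8 library, CRC, SPT and NTT, and all 3 were highest in replicate 3. The summed level of this list was 75.9 to 109 FPKM on day 8, against 82.8 to 85.6 FPKM on day 4. Marker lists of other tissues were low or mixed on day 8: the xylem list summed to 28.03 to 44.7 FPKM (29.1 to 33.7 FPKM on day 4), the root list to 25.8 to 46.0 FPKM (2.40 to 3.90 FPKM on day 4), nearly all from PYK10, and the seed storage list to 0.247 to 4.76 FPKM (0 to 0.175 FPKM on day 4). The part of tissue makeup in the order of the day 8 libraries was not tested.

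**Figure D4:**
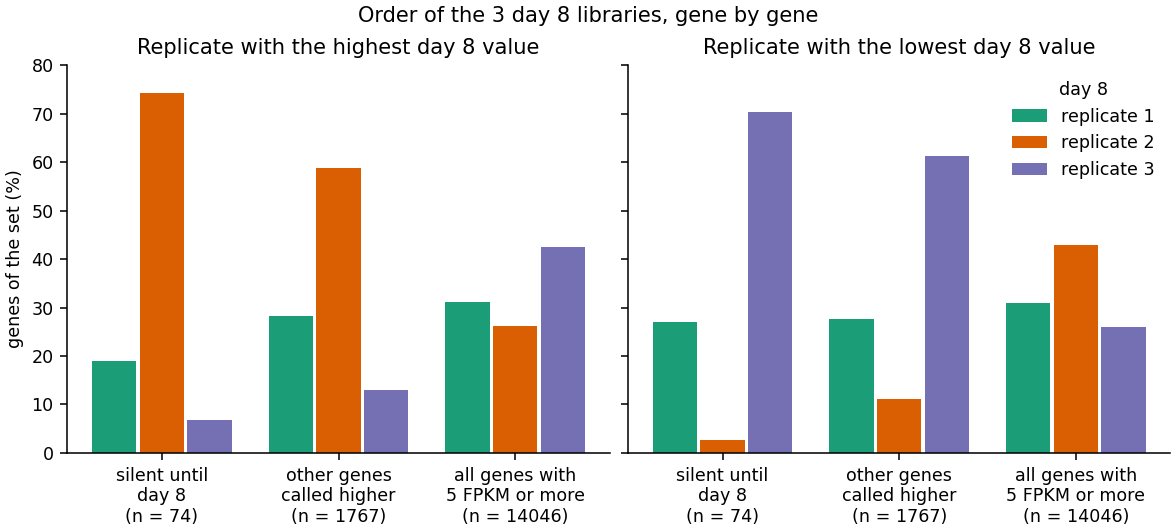
Share of genes (%) whose highest (left) and lowest (right) day 8 value was in replicate 1, 2 or 3, for the 74 members, the 1767 other genes called higher at day 8 than at day 4 and all 14046 genes with at least 5 FPKM in each day 8 library. Replicate 2 is highest for 74.3% of the members, 58.7% of the other called genes and 26.2% of all genes.

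Below 1 FPKM the members were not flat. Their mean level had a median of 0.148 FPKM on day 0, 0.196 FPKM on day 2 and 0.325 FPKM on day 4, while the 1957 other genes below 1 FPKM in each library of these days had medians of 0.21, 0.199 and 0.19 FPKM. In 24 of the 74 members, or 32.4%, each day 4 library was above each day 0 library, against 9.45% of the 1957 others. The opposite order, each day 0 library above each day 4 library, was seen in 3 members, or 4.05%, against 25.4% of the others. The 1957 others were not chosen for a rise on day 8. Other genes called higher on day 8 were not counted in this way, so these shares do not show a trait particular to the members. Signalling genes contributed 7 of 14 to the 24, and the genes placed under jasmonate inactivation 0 of 4.

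These low values need care. In each library 320 to 821 genes were tied at the bottom of the column, which is no measured level. At this value sat 34, 24 and 19 members in the day 0 libraries, 7 and 20 in the day 2 libraries and 3, 8 and 5 in the day 4 libraries. That lowest value was 0 in the day 4 columns but 0.00818 to 0.00909 FPKM in the day 0 columns. Day 4 replicate 1 held the highest earlier value of 33 members and was the highest day 4 library for 62.2% of members, against 42.0% of the other genes below 1 FPKM. Of the members, 28 had at least 0.5 FPKM in that library. In 30 members no earlier library reached 0.5 FPKM.

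**Figure D5:**
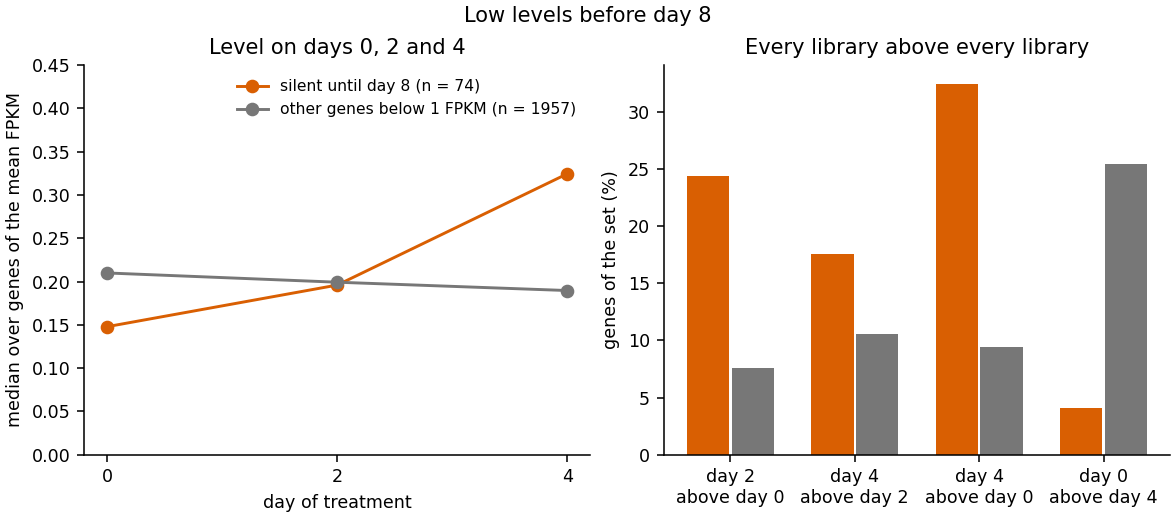
Left, the median over genes of the mean FPKM on days 0, 2 and 4; right, the share of genes (%) for which each library of one day was above each library of another; orange, the 74 members, and grey, the 1957 other genes below 1 FPKM on these days. The members reach 0.325 FPKM on day 4 against 0.19 FPKM in the others, and 32.4% against 9.45% had each day 4 library above each day 0 library.

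Pathways around the members were followed with lists drawn from general knowledge, and the same limma fit was used. Between day 8 and day 4 it called 2401 genes higher and 2111 lower, and after rescaling of the columns by median ratios, which moved the median gene by 0.19 on the log2 scale, 2825 higher and 1500 lower. Of 10 tested genes for jasmonate and ethylene outputs, 8 were higher and 0 lower, beside 12.5% higher among all genes tested. Their median log2 difference was 2.61, beside -0.19 for all genes. PDF1.2b is the one member among them. The rule fixed the calls of PDF1.2b, CBP60G and DIN11, the members in the lists, which are still counted. Some list genes, such as DIN2, passed the filter only through day 8, while low genes such as FRK1 were not tested. The list counts therefore lean toward higher calls, and no test is drawn from them. VSP1 and VSP2 were not called, at 0.24 ± 0.28 (limma adjusted p = 0.471) and 0.59 ± 0.43 (adjusted p = 0.240). VSP1 was already at 525 to 1037 FPKM on day 4, against 668 to 1129 FPKM on day 8. PDF1.2 and PDF1.3 were not tested and reached at most 2.60 and 0.326 FPKM on day 8. CORI3, a cystine lyase induced by jasmonate, had 676, 377 and 534 FPKM on day 8, against 42.35, 20.99 and 19.9 FPKM on day 4 (4.25 ± 0.27, limma adjusted p = 3.66e-07). It was thus already expressed on the days on which the members were below 1 FPKM.

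In defence lists beyond jasmonate the called genes were all higher, while some genes were not called. The share called higher among all genes tested was 12.5%. Camalexin and indole defence genes were higher in 9 of 10 tested (median 2.59), though none is a member, since they were above 1 FPKM earlier or below 5 FPKM on day 8. Among the salicylate-linked genes 7 of 10 tested were higher (median 1.77), CBP60G being the member. ICS1, the salicylate synthesis enzyme, was below the 2-fold limit at -0.54 ± 0.12 (limma adjusted p = 0.00178), EDS1 differed by 0.16 ± 0.11 (adjusted p = 0.188), and PR1 and FRK1 were not tested. For mitochondrial and detoxification stress the count was 9 of 14 (median 1.64), with no member, and UPOX and GSTU25 had differences of -0.35 ± 0.25 and -0.66 ± 0.38 that were not called. No gene of these 3 lists was called lower.

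Senescence and dark-induced genes were higher in 7 of 8 tested (median 2.48), beside 12.5% of all genes tested. DIN11 is the member among them, and its call was fixed by the rule. The genes of this list did not share one order of the day 8 libraries. DIN11 was lowest in replicate 3 at 99.1 FPKM, whereas SEN1, another dark-induced gene, had 215, 576 and 853 FPKM on day 8, against 5.90, 37.1 and 1.35 FPKM on day 4 (5.80 ± 0.81, limma adjusted p = 7.88e-05). DIN10, which acts on raffinose-type sugars, had 147, 541 and 488 FPKM on day 8, against 15.4, 27.6 and 9.87 FPKM on day 4 (4.30 ± 0.46, limma adjusted p = 1.14e-05).

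Floral lists gave no member, but at the overall share of 0.353% less than 1 would be found in them. Only 9 of 14 anther and tapetum regulators, 13 of 30 tapetum and pollen wall genes, 4 of 11 mature pollen genes and 10 of 13 carpel, ovule and nectary genes are in the table, and the rule by which genes entered it is not given in the sources used here. Of the anther and tapetum regulators 1 of 7 tested was higher and 1 lower (median 0.40), of the tapetum and pollen wall genes 0 of 7 were higher and 1 lower (median -0.26), and of the mature pollen genes 0 of 4 were higher and 1 lower (median -0.66). Carpel, ovule and nectary genes were higher in 3 of 7 tested (median -0.34). Beside these counts, 12.5% of all genes tested were called higher. In the remaining lists 1 of 7 xylem genes was higher and 1 lower, and the single tested root and seed storage genes were higher. The seed storage call was lost without day 8 replicate 1 or without day 8 replicate 2.

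Gene structure was a feature that the rule did not use. Of the 73 members with a coding sequence in RefSeq, 30, or 41.1%, had 1 coding exon, against 19.7% of the other genes of the table, 27.4% of the other genes called higher and 33.2% of the other genes below 1 FPKM on days 0, 2 and 4. Members with 2 coding exons or fewer made up 60.3%, against 32.5% of the other genes of the table. NATA1, AT5G52050, CYP94B3 and RRTF1 had 1 coding exon, while DIN11 had 12. Median coding lengths were close, at 1059 bases in the members and 1137 bases in the other genes of the table.

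The members lay on all chromosomes, with 17, 11, 16, 11 and 19 on chromosomes 1 to 5. Only 3 pairs were next to each other in the table. AT1G30720 and AT1G30730 lie 705 bases apart on chromosome 1, UGT76E1 and UGT76E2 957 bases apart on chromosome 5, and FAR5 and FAR8 8852 bases apart on chromosome 3, each pair on one strand and of one family. Of the 128 tested genes that flank a member without being one, 37, or 28.9%, were called higher at day 8 than at day 4, against 12.5% of all genes tested. Among these 37, 8 had the same description as the member and 4 overlapped it in the annotation. As 19 members overlap another annotated gene, some reads may belong to the partner; the kit keeps strand, but whether the estimation used it is not given in the sources used here.

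Short elements in the 250 upstream bases were counted on both strands, except the TATA element, which was counted on the strand of the gene. The TATA element TATAAA was found in 34 of 74 members, or 45.9%, against 31.1% of the other genes of the table, 35.2% of the other genes called higher and 35.7% of the other genes below 1 FPKM on days 0, 2 and 4. The G-box CACGTG was found in 10 members, or 13.5%, against 7.33%, 10.7% and 6.59% of the same sets. Members with a G-box were DIN11, LEA7, RRTF1, AT4G33467, GLYI7, MAPKKK21, UGT76E1, MAPKKK19, AT1G15330 and UGT76E2. UGT76E1 was the one with a G-box among the 5 members described here as acting on jasmonates.

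Other elements gave mixed shares. The W-box core TTGAC, which WRKY factors bind, was in 54.1% of members, against 44.6% of the other genes of the table and 53.4% of the other genes called higher. For TGACG, an element of TGA factors, the shares were 24.3%, against 19.2% and 22.2%. The E-box CANNTG, which includes each G-box, was in 63.5%, against 56.2% and 59.1%. The GCC box GCCGCC was in 1 member, or 1.35%, against 2.01% and 2.03%, and ACCAAC in 10.8%, against 11.6% and 12.4%. CNGTTN, a loose form of the MYB core in which N is any base, was less frequent in the members, at 55.4%, against 71.6% and 67.3%. A match is a description of the letters of the reference genome and not evidence of binding.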

How the data were processed

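Total RNA libraries from inflorescences (Illumina stranded kit, with pools of inflorescences as replicates) were mapped by the authors with STAR to TAIR10 and quantified with RSEM version 1.2.22, per the submitters' processing notes. The authors deposited FPKM values per gene and library, a mean per day, and a p-value and an adjusted value for their comparison across the days, and these last columns and the means were not used. The sorted FPKM columns differed by a median of 0.0701%, so they had been set to a common distribution, and depth is unknown. Sources differ in the dexamethasone concentration, which is not given here.

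Members were found by the stated limits with Python 3.11.15 and pandas 2.3.3. The members, gene lists and tests were chosen with earlier results of these data known. Comparisons of day 8 with day 4 used limma version 3.58.1 in R version 4.3.3 on log2(FPKM + 1), with the 4 days as groups, a variance trend and the genes that reached 1 FPKM in 2 libraries or more. Calls needed a Benjamini-Hochberg adjusted p under 0.05 and a 2-fold change in FPKM + 1. The fit was tested on simulated data. P-values measure the spread between pools.

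Genes are named by rule: the 20 most abundant members, up to 4 of a family or list, list members, genes at either limit and the 5 widest and 5 narrowest day 8 ratios. Other named members, list genes and the relatives CYP94C1, ST2B and AT2G39020 were picked after their values were seen. Gene positions, exons and upstream sequences came from RefSeq on TAIR10.1, where all 74 members matched by locus tag. Alternatives were other limits, the pseudocount, no filter, median-ratio rescaling (size factors 0.870 to 1.05), a replicate block and leaving out each library.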

Additional observations from a re-analysis of the deposited data

How the results depend on the processing

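The number of genes silent until day 8 depended on the limits: 30 with a ceiling of 0.5 FPKM, 184 with a ceiling of 2 FPKM, 129 with a floor of 3 FPKM, 39 with a floor of 10 FPKM, and 238 when the limits were put on the mean of each day. It was 85 with no alias set aside and 83 after median-ratio rescaling, and both sets held all 74 members. Leaving out a library gave 74 to 138 genes, with the 138 found without day 8 replicate 3, and all 74 members remained by construction. Day 4 was wholly above day 2 in 17.6% of members, beside 10.6% of the other genes below 1 FPKM on days 0, 2 and 4. For day 4 above day 0 the member share was 32.4%, beside 9.45% of those others. This member share ran from 35.1% to 43.6% without a library, when fewer libraries had to be in order. The number of genes called higher was 2179 to 2549 without a library, 2670 with a pseudocount of 0.1 and 2825 after rescaling, and list genes called higher, 47 in the main fit, were 43 to 49 without a library. Deviations of same-numbered libraries correlated at -0.25 to 0.13, with 2 of 15 pairs over 0.1. These deviations are from means of 2 or 3 libraries and so depend on each other. They cannot settle whether replicate numbers pair the libraries. A replicate block gave 2402 genes called higher against 2401 without it. Per list, 4 of 192 alternative counts differed by over 1.5 times, all in lists of 2 called genes or fewer. The unknown depth limits all values below 1 FPKM.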
